A study of Homo sapiens with 5 samples.

Results

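The 43 genes described here are human interferon-stimulated genes and genes of nucleic acid sensing, chosen by symbol. Earlier results of these data were known at that choice, a rise of IFIT2 and a fall of MX2 among them. The 43 genes were read in single SW480 cells that had been recovered from zebrafish xenografts. SW480 is an established human colorectal carcinoma line, and the cells expressed GFP. Tumours were dissected at 1 and 4 days post injection (dpi), pooled, dissociated and sorted by flow cytometry into 384-well plates for SORT-seq, which tags every RNA molecule with a well barcode and a unique molecular identifier (UMI). The study set the 2 times to compare a tumour that should still hold all subclones with one that should hold only those that had escaped clearance.

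Libraries 6, 7 and 8 are plates of 1 dpi and libraries 10 and 11 plates of 4 dpi. All cells are of the same line, and the fish was the only host. No cultured cells were among the samples used here. Each plate was filled from pooled tumours, and nothing says that plates of 1 time came from separate pools, so the spread between plates may be technical. In all, 826 cells had more than 2000 genes and less than 25% of their UMIs on mitochondrial genes, 533 of them at 1 dpi and 293 at 4 dpi. Their median UMIs per cell lay between 25938 and 36197 in the libraries of 1 dpi and were 26120 and 18823 in those of 4 dpi. The sample labels give no flow cell, and it was read from a code in the names of the deposited counts. By that code flow cell and time were not confounded, as libraries 6, 7 and 10 shared 1 flow cell and libraries 8 and 11 the other. The epithelial markers EPCAM, KRT8, KRT18 and KRT19 had at least 1874 UMIs in every library. Of the 7 tested epithelial markers, EPCAM rose (log2 change 0.25) and CDH1, KRT18 and KRT19 fell (-0.73, -0.42 and -0.38), so that 57.1% were called against 27.6% of all tested genes. Of the 9 leukocyte markers, CD3E, MPO and TYROBP had 0 UMIs and PTPRC at most 3 per library. CD68, with 81 UMIs in all, was the only one with enough to be tested (log2 change -0.96 ± 0.49 SE, adjusted p = 0.157, edgeR), and CD14, CSF1R, LYZ and CD79A had 47, 38, 34 and 30. The part of these markers in the values below was not tested. Of the endothelial and fibroblast markers, COL1A2 and CDH5 had 0 UMIs, DCN had 2 and COL1A1 rose at 4 dpi (log2 change 2.14 ± 0.41 SE, adjusted p = 0.00138, edgeR). Cells at or above the median share of cell cycle UMIs made up between 39.3% and 47.2% of the libraries of 1 dpi and 60.6% and 59.0% of those of 4 dpi, and the part of this difference in the values below was examined only by splitting the cells.

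Cells sense foreign or misplaced RNA through RIG-I (listed here as DDX58), MDA5 (IFIH1) and PKR (EIF2AK2), and DNA through cGAS (MB21D1) and STING (TMEM173). These routes, other than that of PKR, converge on the kinase TBK1 and on the transcription factors IRF3 and IRF7. These factors switch on interferon genes and a first set of antiviral genes. Secreted interferon then acts through its receptors, JAK kinases and transcription factors, STAT2 and IRF9 among them, on genes that carry an interferon-stimulated response element (ISRE) or a gamma-activated sequence (GAS) in their promoter. The induced proteins include the IFIT, MX, OAS and IFITM families and the ubiquitin-like ISG15 with its enzymes. Cancer cells can express part of this programme without infection.

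To show the promoters that such factors read, RefSeq windows of 300 bases around the gene start (250 before and 50 after it, GRCh38.p14) were searched for an ISRE-type match, GAAANNGAAA on either strand, and for a GAS-type match, TTCNNNGAA, which reads the same on both. A window was found for 31 of the 43 members. An ISRE-type match lay in a window of 19 of these 31 genes (61.3%), against 4.38% of the 27305 genes with a window. A GAS-type match lay in 10 of the 31 (32.3%), against 9.38%. No window was found for IFIT2, MX2, IRF3, OASL, IFITM2 and 7 further members. The 160 bases before the start are printed below, 5′ to 3′ on the strand of the gene, with the matches in capitals, for 3 members that rose at 4 dpi (IFIT3, OAS3 and IFI6), 2 that fell (WARS and IRF1) and 1 that is named for its interferon response and did not pass the test (ISG15). They lie at chr10:89332369-89332528 (plus strand) for IFIT3, chr12:112938314-112938473 (plus) for OAS3, chr1:27672193-27672352 (minus) for IFI6, chr14:100375348-100375507 (minus) for WARS, chr5:132490774-132490933 (minus) for IRF1 and chr1:1013337-1013496 (plus) for ISG15.
IFIT3: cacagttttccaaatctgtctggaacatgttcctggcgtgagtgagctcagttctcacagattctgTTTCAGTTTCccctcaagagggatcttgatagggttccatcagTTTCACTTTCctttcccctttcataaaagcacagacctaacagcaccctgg
OAS3: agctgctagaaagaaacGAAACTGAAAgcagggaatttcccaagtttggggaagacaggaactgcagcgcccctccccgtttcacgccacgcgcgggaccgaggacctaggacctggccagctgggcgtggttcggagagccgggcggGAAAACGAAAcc
IFI6: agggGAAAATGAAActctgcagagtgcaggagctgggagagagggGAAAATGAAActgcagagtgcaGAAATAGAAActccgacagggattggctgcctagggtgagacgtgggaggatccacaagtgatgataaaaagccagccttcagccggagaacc
WARS: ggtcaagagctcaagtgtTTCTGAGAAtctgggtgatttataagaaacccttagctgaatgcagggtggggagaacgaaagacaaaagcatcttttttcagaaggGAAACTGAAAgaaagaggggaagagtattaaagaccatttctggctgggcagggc
IRF1: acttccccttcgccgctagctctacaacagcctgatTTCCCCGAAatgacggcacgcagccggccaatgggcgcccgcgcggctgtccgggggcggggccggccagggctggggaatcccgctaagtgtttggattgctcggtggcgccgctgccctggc
ISG15: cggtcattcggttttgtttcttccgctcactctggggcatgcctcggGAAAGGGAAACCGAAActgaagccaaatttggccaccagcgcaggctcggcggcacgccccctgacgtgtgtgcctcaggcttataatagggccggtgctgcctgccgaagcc
IFIT3 and OAS3 hold 2 ISRE-type matches in this stretch and IFI6 holds 3. WARS has 1 ISRE-type and 1 GAS-type match at this start and none of either at its other RefSeq start, and IRF1 has 1 GAS-type match. The matches in ISG15 overlap. Of the members with a window, 3 of 3 that rose, 1 of 4 that fell and 11 of 19 that did not pass the test had an ISRE-type match. A GAS-type match was found in 0, 2 and 4 of them. MX2 and IRF3, which fell, and IFIT2, which rose, are missing from these counts, and matches with another spacing were not searched for. A match describes the letters of the window and not a bound site.

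All 43 members had UMIs in at least 1 library, 39 were listed in all 5 libraries, and 36 passed the filter on low counts and were tested. UMIs were summed over the cells of a library, normalised by TMM and given as CPM (UMIs of a gene per 1000000 UMIs), and 4 dpi was compared with 1 dpi by edgeR's quasi-likelihood test over 12646 genes with Benjamini-Hochberg adjustment and a threshold of 0.05. Of the 36 tested members, 4 rose (11.1%, with 13.4% of all tested genes called higher) and 6 fell (16.7%, with 14.2% of all tested genes called lower). The median log2 change of the 36 was 0.07, and that of all tested genes 0.00. The members were thus called about as often as any gene, and no shared direction was seen. The members that rose were IFIT2, IFIT3, OAS3 and IFI6, all effector proteins that interferon induces. The members that fell were MX2, WARS, the kinase TBK1, the transcription factors IRF1 and IRF3 and the ubiquitin ligase TRIM25. TBK1, IRF1, IRF3 and TRIM25 act in sensing and regulation. Inducible genes, such as MX2, WARS and IRF1, were thus among those that fell as well, and the directions do not divide the members by inducibility. The 2 libraries of 4 dpi lay outside the range of the 3 libraries of 1 dpi in all 10, as they did in 18 of the 36 tested members (54.6% of all tested genes), above it in 8 members (27% of all genes) and below it in 10 (27.6%). Members called and not overlapping were the same 4 and 6, against 13.3% and 14.1% of all tested genes.

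**Figure D1:**
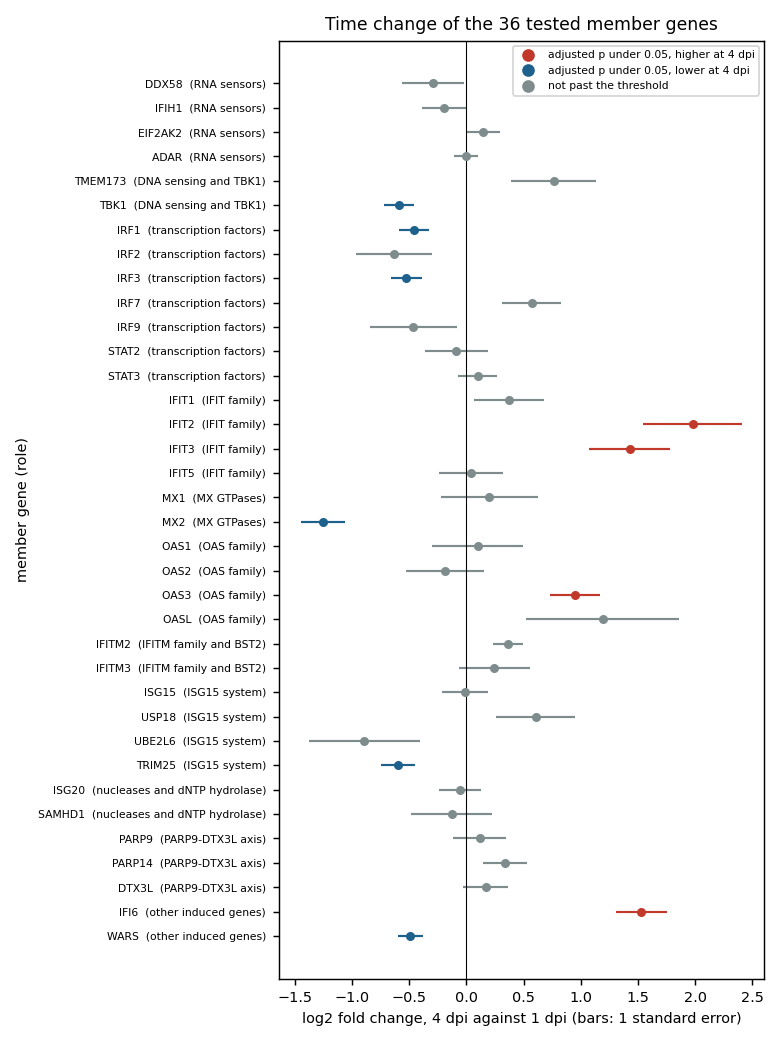
Log2 fold change at 4 dpi against 1 dpi (x axis) of the 36 tested members, grouped by role (y axis), with bars of 1 standard error of the edgeR fit. Red points are the 4 members that rose, blue points the 6 that fell and grey points those that did not pass the adjusted threshold of 0.05. IFIT2 lies farthest to the right at 1.98 and MX2 farthest to the left at -1.25.

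Among the RNA sensors, none of the 4 tested members was called in either direction. ADAR, the enzyme that edits adenosine in double-stranded RNA and so hides it from MDA5, was among the members of highest level, with 111, 97.9 and 106 CPM in libraries 6, 7 and 8 and 111 and 98.3 CPM in libraries 10 and 11. The libraries of the 2 times overlapped, and 82.3% of the cells of 1 dpi and 77.8% of those of 4 dpi held at least 1 UMI (means of the libraries). EIF2AK2, the kinase that halts translation on double-stranded RNA, lay between 44.8 and 66.2 CPM over the 5 libraries, and the helicases IFIH1 (14.4 to 20.3 CPM) and DDX58 (6.30 to 8.40 CPM) were lower. Of the words of 60 bases in the last 500 bases of DDX58 transcripts, 97.6% also occur in another gene model of GENCODE, so its counts are uncertain. The regulatory helicase DHX58 had 12 UMIs in all and was not tested.

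On the DNA side, the sensor MB21D1 had 3 UMIs in all, at 1 dpi, and its adaptor TMEM173 had between 2.14 and 5.46 CPM. The level of TMEM173 was higher in both libraries of 4 dpi than in any of 1 dpi, but the change of 0.76 ± 0.37 (SE, log2) did not pass the test (adjusted p = 0.143, edgeR). TBK1, the kinase below both the RNA and the DNA routes, had 60.2, 59.6 and 58.2 CPM at 1 dpi and 44.3 and 34.6 CPM at 4 dpi. The 3 libraries of 1 dpi were close to each other and well above both of 4 dpi, a fall of 0.59 on the log2 scale (SE 0.13, adjusted p = 0.00415, edgeR). Without library 11 TBK1 was no longer called (adjusted p = 0.0643).

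Of the 7 transcription factors, IRF1 and IRF3 fell and the other 5 did not pass the test. IRF3, which TBK1 phosphorylates, had 58.6, 57.1 and 63.8 CPM at 1 dpi and 36.3 and 46.8 CPM at 4 dpi (log2 change -0.53 ± 0.14 SE, adjusted p = 0.009, edgeR). IRF1, itself a target of interferon gamma and of NF-κB, had 82.5, 97.8 and 83.6 CPM at 1 dpi and 55.7 and 72.3 CPM at 4 dpi (log2 change -0.46 ± 0.13 SE, adjusted p = 0.0166). In both genes library 10 was the lower of the 2 libraries of 4 dpi, and without it neither was called (adjusted p = 0.128 for IRF3 and 0.204 for IRF1, and IRF1 fell by 0.28 on the log2 scale). IRF3 was also not called after every cell was thinned to 5000 UMIs or in cells at or above the median cell cycle share. IRF1 was also not called without library 7 (adjusted p = 0.0689) or in cells with under 15% mitochondrial UMIs (log2 change -0.32, adjusted p = 0.104). IRF7, the inducible relative of IRF3, ranged from 8.19 to 11.6 CPM at 1 dpi and had 10.6 and 18.0 CPM at 4 dpi, so that its libraries overlapped. It was not called (log2 change 0.57 ± 0.26 SE, adjusted p = 0.11, edgeR), but it passed without library 10 (0.91, adjusted p = 0.0254) and in cells with under 15% mitochondrial UMIs (0.84, adjusted p = 0.0427), and without library 11 the change was 0.14. The partners of the interferon-activated complex, STAT2 (7.05 to 9.11 CPM) and IRF9 (2.52 to 4.20 CPM), were low at both times, and 35.9% of the words at the end of IRF9 transcripts occur in another gene model.

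The IFIT family binds viral RNA and is among the first induced genes. The UMIs of IFIT2 numbered 7, 7 and 6 on the plates of 1 dpi and 19 and 17 on those of 4 dpi, or 0.936, 1.33 and 1.26 CPM against 4.79 and 4.42 CPM. Both libraries of 4 dpi were above 4 CPM and all of 1 dpi below 1.4 CPM, a 3.94-fold rise (log2 change 1.98 ± 0.43 SE, adjusted p = 0.00329, edgeR), though it rested on 56 UMIs in 40 cells. IFIT3, which IFIT1 and IFIT2 bind as a partner, had 2.81, 2.09 and 4.20 CPM at 1 dpi and 6.55 and 9.63 CPM at 4 dpi, 2.69-fold higher (log2 change 1.43 ± 0.35 SE, adjusted p = 0.00733). Library 11 held the higher value of IFIT3, and without it the gene was not called (adjusted p = 0.109). IFIT1 had 3.99 to 7.49 CPM at 1 dpi and 8.06 and 8.32 CPM at 4 dpi, and IFIT5 5.98 to 8.56 CPM over the 5 libraries. Neither passed the test, with log2 changes of 0.37 ± 0.31 and 0.04 ± 0.28 (SE).

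The MX proteins are dynamin-like GTPases against viruses. MX2, which acts at the nuclear pore, had 31.6, 43.3 and 30.9 CPM at 1 dpi and 15.1 and 14.3 CPM at 4 dpi. Every library of 1 dpi had at least 2.04 times the level of either library of 4 dpi, and the fitted level at 4 dpi was 0.419 of that at 1 dpi (log2 change -1.25 ± 0.19 SE, adjusted p = 0.00023, edgeR). Its neighbour on chromosome 21, the cytoplasmic MX1, had 2.14 to 5.13 CPM at 1 dpi and 4.28 and 3.64 CPM at 4 dpi, with overlapping libraries and a log2 change of 0.20 ± 0.42 (SE). OAS enzymes make the activator of RNase L. OAS3 had 7.89, 7.59 and 7.77 CPM at 1 dpi and 14.9 and 15.1 CPM at 4 dpi, with an SD of 0.15 and 0.162 CPM between libraries, and rose 1.93-fold (log2 change 0.95 ± 0.22 SE, adjusted p = 0.00489). In the cells with under 15% mitochondrial UMIs the log2 change was 0.50 and was not called (adjusted p = 0.23). OAS1 and OAS2 stayed between 2.77 and 5.08 CPM in every library and did not pass the test.

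**Figure D2:**
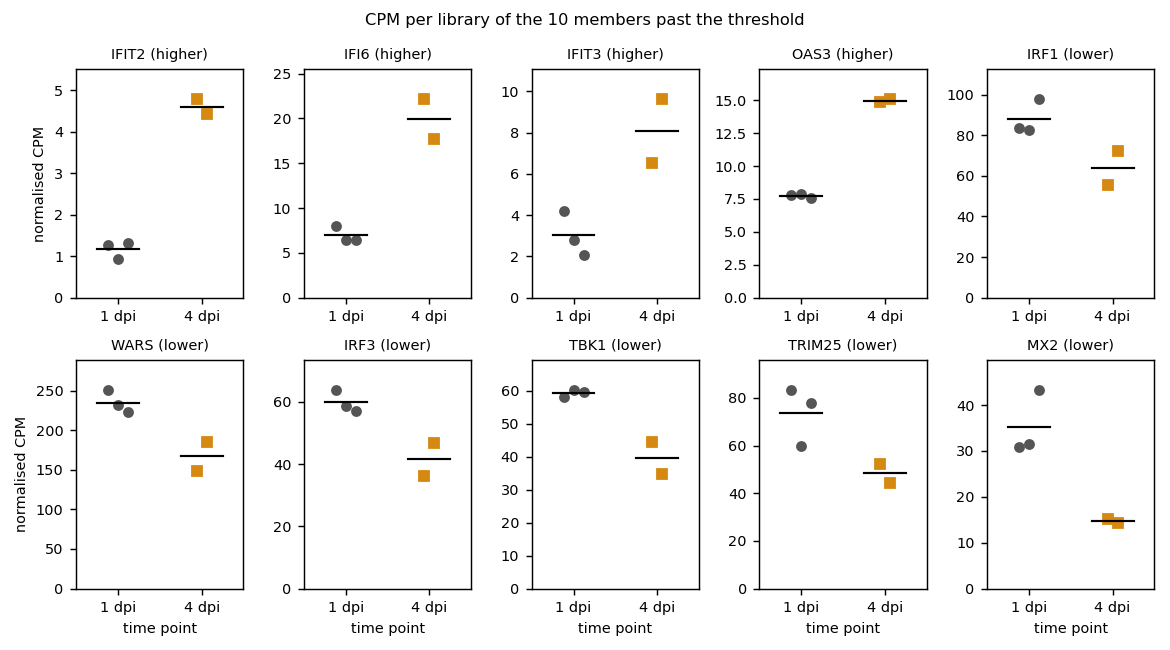
TMM-normalised CPM (y axis, each panel from 0) of the 10 members past the threshold at 1 and 4 dpi (x axis). Each point is a library (3 grey circles at 1 dpi, 2 orange squares at 4 dpi) and each line the mean of its group. In every panel the groups do not overlap, and the points of OAS3 nearly coincide within each time.

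Among the inducible membrane proteins IFITM2, which blocks the entry of viruses from endosomes, was the member of second highest mean level. It had 154, 211 and 170 CPM at 1 dpi and 260 and 198 CPM at 4 dpi. Library 7 of 1 dpi was above library 11 of 4 dpi, and the log2 change of 0.36 ± 0.13 (SE) fell just short of the threshold (adjusted p = 0.0531, edgeR). In 7 of 19 alternatives, the flow cell as a term among them, it passed. Reads of the IFITM genes can be shared: 18.3% of the words of 60 bases in the last 500 bases of IFITM2 transcripts occur in another gene, 15.3% for IFITM3 and 24.9% for IFITM1, so their split is uncertain. IFITM3 had 4.68 to 7.54 CPM, while IFITM1 (33 UMIs in all) and the virus tether BST2 (39 UMIs) were too low to test.

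ISG15, the ubiquitin-like protein that gives the system its name, had 18.5, 25.8 and 24.8 CPM at 1 dpi and 18.1 and 27.1 CPM at 4 dpi. Both the lowest and the highest library were of 4 dpi, and the log2 change was -0.01 ± 0.20 (SE, adjusted p = 0.968, edgeR). TRIM25, a ubiquitin and ISG15 ligase that also aids RIG-I, had 59.9, 78.0 and 83.4 CPM at 1 dpi and 52.4 and 44.5 CPM at 4 dpi. It fell by 0.60 on the log2 scale (SE 0.15, adjusted p = 0.00734), and library 6 was nearer to library 10 than to libraries 7 and 8. Without library 11 it was not called (adjusted p = 0.0599). The ISG15 conjugating enzyme UBE2L6 had 2.54 to 2.73 CPM at 1 dpi and 1.51 and 1.30 CPM at 4 dpi, and the protease USP18, which removes ISG15, 2.94 to 4.18 CPM and 4.79 and 6.50 CPM. Neither passed the test on its 57 and 109 UMIs. Of the words at the end of USP18 transcripts, 74.5% occur in another gene model, so its counts are uncertain.

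The remaining roles held 1 gene that rose and 1 that fell. IFI6, a small mitochondrial and endoplasmic reticulum protein with an antiapoptotic role, had 6.42, 6.45 and 7.98 CPM at 1 dpi and 22.2 and 17.7 CPM at 4 dpi. The rise was 2.89-fold (log2 change 1.53 ± 0.22 SE, adjusted p = 0.000149, edgeR), the lowest adjusted p of the members. Of the 60-base words at the end of IFI6 transcripts, 35.4% also occur in the noncoding transcript LINC02574, for which no counts were listed. WARS, the tryptophanyl-tRNA synthetase, which interferon gamma induces, was the member of highest mean level, with 231, 222 and 251 CPM at 1 dpi and 149 and 185 CPM at 4 dpi. It fell by 0.49 on the log2 scale (SE 0.11, adjusted p = 0.00356), and without library 10 it was not called (adjusted p = 0.057). Nor was it called in cells with under 15% mitochondrial UMIs (log2 change -0.23, adjusted p = 0.213) or below the median cell cycle share (-0.16, adjusted p = 0.495). The 3 members of the PARP9 and DTX3L axis of ADP-ribosylation and ubiquitination moved little, with PARP14 at 12.8 to 15.5 CPM at 1 dpi and 16.4 and 18.99 CPM at 4 dpi (log2 change 0.34 ± 0.20 SE, adjusted p = 0.215). The exonuclease ISG20 and the dNTP hydrolase SAMHD1 had log2 changes of -0.06 ± 0.19 and -0.13 ± 0.35 (SE). IFI27 had 42 UMIs in all, IFI44 had 4 and IFI35 had 3.

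Only IFI6 and MX2 were called in all 19 alternatives to the main settings, and IFIT2 was called in each of the 17 in which it passed the filter on low counts. The changes of IFIT2 and MX2 were known from these data beforehand, and every alternative used the same plates. Their calls are therefore a description and no independent evidence. With the flow cell as a term all 10 members remained called. In cells below the median cell cycle share, IFI6 and IFIT2 rose and MX2, IRF3 and TRIM25 fell. OAS3 did not pass the filter on low counts in these cells and was not tested there. In cells at or above the median share, IFI6, IFIT3 and OAS3 rose and MX2, IRF1, TBK1 and WARS fell. There IFIT2 did not pass the filter and was not tested. A difference between these sets of cells was not tested.

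Summed over all members, the level differed little. The libraries of 1 dpi held 1074, 1137 and 1144 CPM of member UMIs and those of 4 dpi 1056 and 1057 CPM (of all UMIs in the cells). Both libraries of 4 dpi lay below those of 1 dpi by less than the range of the latter. WARS was the largest contributor at 1 dpi, with 19.2% to 21.9% of the member UMIs, and IFITM2 at 4 dpi, with 24.7% and 18.98%. In every library 5 genes gave between 58.1% and 61.0% of the member UMIs. A score over these genes is therefore mostly a reading of WARS, IFITM2, ADAR, IRF1 and EIF2AK2 or TRIM25, and single members rose and fell beneath it.

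The share of cells with at least 1 UMI followed the CPM for the called members, but it also depends on depth. IFI6 was found in 15.4%, 14.1% and 14.1% of the cells of libraries 6, 7 and 8 and in 39.4% and 23.0% of those of libraries 10 and 11. After every cell was thinned to 5000 UMIs (815 cells), the shares were 3.10%, 2.86% and 2.50% against 11.5% and 10.7%, so both times remained apart. MX2 went from 41.7%, 52.8% and 38.04% to 21.2% and 22.4%, and thinned from 10.6%, 15.7% and 11.9% to 6.15% and 4.40%. IFIT2 was found in 2.63%, 2.82% and 3.68% of the cells of 1 dpi and in 9.09% and 7.45% of those of 4 dpi. Thinned, its shares were 0%, 0% and 1.88% against 2.31% and 0.629%, so the times overlapped and no order can be read at that depth; a count of 0 in the 226 and 140 thinned cells of libraries 6 and 7 allows shares of up to 1.33% and 2.14%. OAS3 overlapped after thinning as well, with 2.14% to 4.42% at 1 dpi and 3.08% and 5.03% at 4 dpi, and so did IRF3, with 19.9% to 24.3% and 12.3% and 21.4%. Over the 43 members the median share was 16.3% at 1 dpi and 15.7% at 4 dpi, and a cell held UMIs of 11, 12 and 11 members at the median in libraries 6, 7 and 8 and of 10 and 9 in libraries 10 and 11. These shares and intervals cover counting error only.

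**Figure D3:**
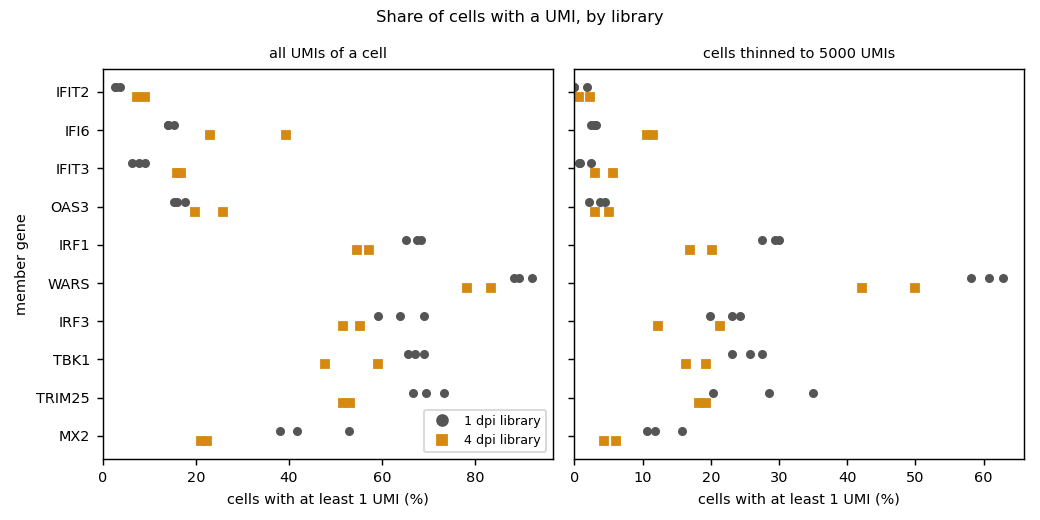
Share of cells with at least 1 UMI (x axis, percent) of each called member (y axis) in each library, with all UMIs of a cell (left) and after thinning to 5000 UMIs (right). Grey circles are the 3 libraries of 1 dpi and orange squares the 2 of 4 dpi. IFI6, IFIT3, MX2, TBK1, IRF1, TRIM25 and WARS stay apart between the times after thinning, whereas IFIT2, OAS3 and IRF3 overlap.

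A rise of IFIT2 beside a fall of MX2 could occur in the same or in different cells. IFIT2 was seen in 40 cells and MX2 in 296, and 14 cells held both. The product of the shares within each library gave 12.1 cells. By library, 1, 3, 1, 5 and 4 cells of libraries 6, 7, 8, 10 and 11 held both, against 2.50, 2.11, 2.28, 2.55 and 2.68 from the shares, so libraries 6 and 8 lay below and the other 3 above. The odds ratio pooled over libraries (Mantel-Haenszel) was 1.26. Cells with a UMI of either gene were deeper, with a median of 35164 UMIs for IFIT2 and 38573 for MX2 against 26999.5 and 21977.5 in the cells without. With the cells of each library also split into 3 groups of equal size by depth, a choice made after the data were seen, 13.8 cells came from the shares and the odds ratio was 1.03. At 1 dpi 5 of 16 cells with IFIT2 also held MX2 (6.89 from the shares), and at 4 dpi 9 of 24 did (5.23). The odds ratios within depth groups were 0.43 at 1 dpi and 2.08 at 4 dpi, so the pooled value lies between opposite sides. Over both times together, the 2 genes were neither kept apart nor drawn together to a degree these counts can show. Most cells with IFIT2 (26 of 40) had no MX2 UMI, but neither had most cells of any kind, as MX2 was seen in 296 of 826.

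With a minimum of 2 UMIs of each gene the picture was thinner. IFIT2 reached 2 UMIs in 8 cells, and 5 of these, 4 of them at 1 dpi, also had 2 or more of MX2, against 1.34 from the shares (odds ratio 17.1). These 5 cells had between 39538 and 67267 UMIs, while the median of all cells was 27303.5. MX1 and MX2, the pair from the same locus, were found together in 43 cells against 30.8 from the shares within depth groups (odds ratio 2.47), while over time MX2 passed the test and MX1 did not. IFI6 shared cells with OAS3 (58 against 39.8, odds ratio 2.34) and with IFIT3 (34 against 24.5, odds ratio 1.95). IFIT3 and OAS3 did not exceed the shares (22 against 22.4, odds ratio 0.97). Over the pairs of members that rose, the median odds ratio within depth groups was 1.67 for 6 pairs, over the pairs that fell 1.34 for 15 pairs, and over pairs of a riser with a faller 1.21 for 24 pairs. The median over the 684 pairs of any members with at least 5 cells from the shares was 1.17. No test was made of these ratios, since cells of a plate are not replicates.

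OASL, an OAS relative that binds RIG-I, showed how far 1 cell can carry a library. Its UMIs numbered 6, 14 and 5 on the plates of 1 dpi and 3 and 23 on those of 4 dpi. Library 11 alone stood high, and 21 of its 23 UMIs came from a single cell, whereas no other cell of the series had more than 4. The log2 change of OASL was 1.19 ± 0.67 (SE, adjusted p = 0.198, edgeR). Without library 10 it was called (2.03, adjusted p = 0.0204), without library 11 it turned to -0.93, and without that single cell OASL no longer passed the filter on low counts.

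That cell had 53723 UMIs, the 10th most of the 161 cells of library 11, and 5.62% mitochondrial UMIs. It held 21 of the members, against a median of 9 in the other 160 cells of the library. These numbers were not matched for depth, as the median of library 11 was 18823 UMIs per cell. Beside OASL the single cell had 16 UMIs of ISG15, 8 of USP18, 7 of IFIT1 and 4 each of IFIT2 and MX1. Per 10000 UMIs ISG15 stood at 2.98 (95% Poisson interval 1.70 to 4.84) against 0.236 in the other cells together, 12.6-fold higher, and USP18 at 1.49 (0.643 to 2.93) against 0.0455. IFIT1 was 19.5-fold, IFIT2 21.4-fold and MX1 27.8-fold above the other cells. Of the members that were not raised, MX2, OAS3, IFIH1 and PARP14 had 1 UMI each there, with intervals that include the level of the other cells, and IFI6 and IFIT3 had 0. IFITM2 also had 0 UMIs in the cell, where the Poisson interval reaches 0.687 per 10000, below the 2.03 of the other cells. Outside the members the cell also held 8 UMIs of DDX60, 8 of HERC5 and 44 of the antiviral RNA-binding protein ZC3HAV1 (8.84-fold), and 0 of IFNL1 and IFNE. Not every interferon-stimulated gene outside the members was raised there. LY6E and XAF1 had 0 UMIs, against 0.741 and 0.474 per 10000 in the other cells, and PSME2 had 1 UMI (0.147-fold). The cell was picked by its OASL count after the data were seen, so that its OASL value is a description. It supplied 15.4% of the ISG15 UMIs of library 11, 32.0% of those of USP18 and 23.5% of those of IFIT2. Without it, IFIT2 remained called (1.82 ± 0.45 SE, adjusted p = 0.00685), and the changes of USP18 and ISG15 were 0.33 and -0.14 on the log2 scale.

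**Figure D4:**
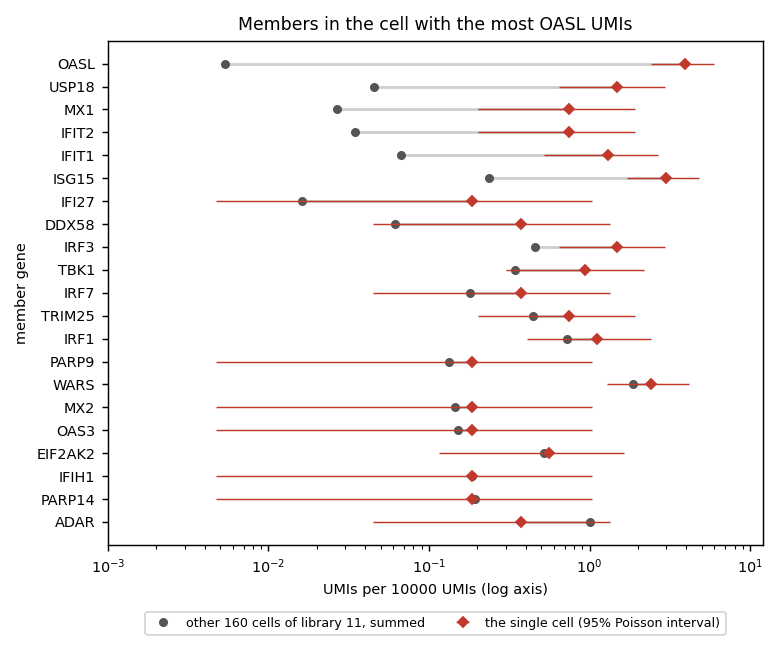
UMIs per 10000 UMIs (x axis, log scale) of the 21 members found in the cell of library 11 with the most OASL UMIs (y axis). Red diamonds are the cell, with 95% Poisson intervals for counting error, and grey circles the other 160 cells of the library summed. OASL, USP18, MX1, IFIT1, IFIT2, ISG15 and IRF3 lie to the right of the other cells beyond their intervals, while MX2 and OAS3 do not.

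The other genes of the pathway were read from lists of the same fit. Of 9 interferon genes, IFNL1 had 2 UMIs, 1 at each time, and IFNE 1, and IFNB1 and the other 6 had 0 in 25412630 UMIs, which allows up to 0.118 CPM. Of 9 tested receptor and JAK-STAT genes, 1 rose and 2 fell (33.3% called, against 27.6% of all tested genes). The type I interferon receptor chain IFNAR1 had 54.6, 46.9 and 48.9 CPM at 1 dpi and 87.9 and 86.9 CPM at 4 dpi (log2 change 0.80 ± 0.11 SE, adjusted p = 0.000134, edgeR). The interferon gamma receptor chain IFNGR2 went the other way, from 71.0, 75.2 and 69.5 to 41.8 and 41.9 CPM (log2 change -0.78 ± 0.12 SE, adjusted p = 0.000226), and the kinase JAK1 fell by 0.41 on the log2 scale.

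Among 17 tested adaptors and kinases of sensing, 2 rose and 3 fell (29.4% called, near the 27.6% of all tested genes). MAVS, the mitochondrial adaptor of RIG-I and MDA5, rose (log2 change 0.52), as did RNASEH2A (0.67), a subunit of the enzyme that removes RNA from DNA. TICAM1, the adaptor of TLR3, had 14.8, 31.9 and 26.0 CPM at 1 dpi and 8.06 and 9.11 CPM at 4 dpi (log2 change -1.47), and the ubiquitin ligases TRAF6 and TRAF3 fell by 0.93 and 0.42. Of 13 tested negative regulators, 3 fell and 0 rose: TNFAIP3, an NF-κB brake (-1.31), the phosphatase PTPN2 (-0.62) and TRIM24 (-0.48). Thus 23.1% of this list was called lower, against 14.2% of all tested genes, and 0% higher, against 13.4%. Of the 13, 10 had a log2 change below 0, and the median was -0.19. A direction of this list was not tested.

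Among 47 further interferon-stimulated genes that are not members, 10 rose (21.3%, against 13.4% of all tested genes) and 5 fell (10.6%, against 14.2%), with a median log2 change of 0.19 against 0.00. HERC5, the ligase that attaches ISG15 to its targets, had 5.89, 5.31 and 5.46 CPM at 1 dpi and 19.6 and 18.99 CPM at 4 dpi (log2 change 1.79 ± 0.22 SE, adjusted p = 4.14e-05, edgeR). SHISA5 (1.17) and SAMD9 (0.77) followed. The largest falls were HELZ2 (-0.66), N4BP1 (-0.47) and SAT1 (-0.42).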

How the data were processed

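UMI counts of single SW480 cells from 5 SORT-seq plates (3 of 1 dpi, 2 of 4 dpi) were used. The authors took the well barcode and UMI from read 1, aligned read 2 to the human transcriptome (BWA and hg38 in the processing notes, the version of BWA not given in the sources used here) and deposited raw UMI counts per gene and well, without normalization. ERCC controls, 1.30% to 3.57% of the UMIs of a library, were left out of totals and tests. Human genes had between 4487175 and 7632953 UMIs per library, so genes of few UMIs are imprecise.

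Following the code published with the study, genes listed in all 5 libraries and seen in at least 10 wells were kept (15021 of 21199 listed in any), with cells of more than 2000 genes and under 25% mitochondrial UMIs (826 cells). ERCC rows counted in this cell filter, as that code does not remove them. This was set after a first filter without them had left 822 cells, fewer than the study states. Wells were filled by sorting 1 cell each, and doublets were not looked for. The plate was the replicate. UMIs summed per plate were tested with edgeR 4.0.16 (R 4.3.3; TMM, filterByExpr, quasi-likelihood test, two-sided, Benjamini-Hochberg over 12646 genes). Standard errors are those of the fit. On simulated data for this comparison (12397 genes, 200 changed by 1.5 on the log2 scale) 95% of the changed genes were called, and 4.55% of the calls were unchanged genes. The changed genes all had more than 10 expected UMIs in the smallest library, and the dispersion was fixed. These rates therefore do not describe members of few UMIs or smaller changes, such as those of IRF1, IRF3 and WARS. Shares of cells and co-detection were described per library without a test. Alternatives were DESeq2 1.42.0, RLE factors, other filters on genes and cells (a mitochondrial maximum of 15% among them), thinning to 5000 UMIs, cells below or above the median cell cycle share, the flow cell as a term and each plate left out. The 3 depth groups, the removal of 1 cell and the cell filter without ERCC rows were added after seeing the data.

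The members, their roles and the other lists were chosen with earlier results of these data known. All members were accounted for, and values in every plate were given for called members whose plates do not overlap, the 5 of highest mean CPM, IFIT2 and MX2, and, chosen after their values were seen, OASL and further uncalled members. From the pathway lists, up to 3 called genes per direction with the largest change and IFNB1 and IFNL1 were named. A further gene of that rule is not reported here. Symbols were matched to RefSeq (GRCh38.p14) promoter windows through synonyms, and words of 60 bases were compared in GENCODE transcripts.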

Additional observations from a re-analysis of the deposited data

How the results depend on the processing

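No paired analysis was possible because the libraries of the 2 times share no replicate number. The number of members that rose was 4. After thinning it was 2, IFI6 and IFITM2, while IFIT2, IFIT3 and OAS3 did not pass the filter on low counts. In cells below the median cell cycle share it was also 2, IFI6 and IFIT2. The number that fell was 6, with 5 after thinning (IRF3 no longer called) and 3 in cells below the median cell cycle share. With a mitochondrial maximum of 15%, 4 rose (IRF7 in place of OAS3) and 4 fell (IRF1 and WARS no longer called). Leaving out each library gave 4 to 6 higher and 3 to 6 lower members. Over all tested genes, 1695 rose and 1790 fell, with 628 and 539 after thinning, 790 and 783 in cells below the median cycle share and 1223 and 1129 in those at or above it. Fewer members passed the filter on low counts after thinning (17) and in those cells (30). ADAR, near 0 at -0.0047, changed sign with a minimum of 1000 genes (0.00090), after thinning (0.10), in cells below and at or above the median cycle share (0.014 and 0.021), without the cell rich in OASL (0.0034), with the flow cell as a term (0.0044) and without library 6, 8 or 11 (leaving out each library gave -0.095 to 0.076). Leaving out each library moved OASL between -0.93 (without library 11) and 2.03. With ERCC rows left out of the cell filter, 4 members rose and 6 fell, and no named member changed its sign or its side of the threshold. EIF2AK2 (0.14) turned to -0.024 with a mitochondrial maximum of 15%, to -0.023 after thinning and to -0.050 without library 10 (leaving out each library gave up to 0.31). None of the 10 called members changed sign in an alternative, and 16 of the 26 others did in at least 1. Thinning lowered the median share of cells with a UMI to 2.85% at 1 dpi and 3.60% at 4 dpi, and the summed level at 4 dpi to 1039 CPM. The odds ratio of IFIT2 and MX2 was 17.1 with at least 2 UMIs of each, 1.82 after thinning on 1 cell with both, and 0.90 to 1.65 without each library in turn. Depth limits members of few UMIs, such as IFIT2, OASL and the untested ones, and 3 plates against 2 limit every test.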
